A study of Mus musculus with 28 samples.

Results

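Gene expression was compared between livers of mice fed a high fat diet with quercetin (HQ) and livers of mice fed the high fat diet alone (HFD). The arrays were chosen by their labels, as the 5 arrays of the quercetin group and the 6 arrays of the high fat diet group, which make 11 of the 28 arrays of the series. All mice were male, of the strain the labels write as C57/6J, 7 weeks old at the start and 33 weeks old after 26 weeks of diet. HQ mice ate the high fat diet with 0.4% quercetin, which is 4 g per kg of diet, and HFD mice ate it with no added compound. The remaining arrays were 5 of a standard diet (SD), 6 of the high fat diet with 0.4% resveratrol (HR) and 6 of the high fat diet with 0.2% quercetin and 0.2% resveratrol (HQR). Each array held RNA of 1 liver of 1 mouse. Per the labels, the RNA of 2 further mice was degraded and was not hybridised.

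Quercetin is a plant flavonol that gut and liver conjugate with glucuronic acid, sulfate and methyl groups, and it has been studied as a ligand of the aryl hydrocarbon receptor and as an agent that acts on NRF2, the regulator of antioxidant genes. The nuclear receptors CAR and PXR drive the drug-metabolising cytochrome P450 genes of hepatocytes, of which Cyp2b10 is the usual readout of CAR. Several mouse liver genes, among them Cyp2b9, Cyp2b13 and Hao2, are higher in females than in males because male growth hormone pulses hold them low, while others such as Moxd1 are higher in males.

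Each gene below was read by an array probe, and the probes of the genes with the clearest separation and of the Cyp2b family are shown to identify what was measured, since the 3 Cyp2b genes are close paralogs. The first 30 bases of each 60-base probe follow, with positions on the mouse build mm9 as the array files give them. Whether a probe also binds a paralog was not tested, and exon and UTR annotation on mm9 was not analysed here.
Hao2, peroxisomal hydroxy acid oxidase, chr3:98678664-98678723, minus strand: gtcacagcatgttacagaaatattatgatc
Cyp2b10, CAR-responsive P450, chr7:26702056-26702115, plus strand: tcagagattttcagatcttatacctattgg
ENSMUST00000005477, a second probe in the Cyp2b10 region that the array file names by transcript, chr7:26702417-26711087, plus strand: gaaaagtgaagcttttctgcccttctcaac
Cyp2b13, female-biased P450, chr7:26873757-26880713, plus strand: cacaggaaagcgcatttgtcttggtgaaag
Cyp2b9, female-biased P450, chr7:26995607-26995666, plus strand: taaggtctgatttctatgtctacagacttg
Moxd1, a male-biased monooxygenase-like gene, chr10:24022208-24022266, plus strand: cactcagtgctaccctctgggtcgatctga
The Cyp2b13 and ENSMUST00000005477 probes cover a much longer stretch of the genome than their own length, so the deposited positions place them across an intron.

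On the 11 arrays, 59.4% to 82.1% of probes were well above background, the 75th percentile of the processed signal ran from 196 to 513, and no spot was saturated. Correlations between any pair of these arrays ran from 0.933 to 0.988 over all genes. The arrays lay on 9 slides, and only 2 slides held livers of both groups: HQ 1 with HFD 1, and HQ 5 with HFD 4. HQ 3 was the only array on its slide, so every value given with slide as a block rests on the other 4 HQ livers. Slide accounted for a share of 0.739 of the spread along the first principal component of all 28 arrays, which held 42.0% of the variance, and diet group for 0.0363. All 12 hepatocyte markers listed, among them Alb and Ttr, were measured, with a summed level of 1837 to 3388 times the array's 75th percentile in HQ and 1679 to 3017 times in HFD, as the liver label requires.

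In the comparison of HQ with HFD, no gene of 21862 passed an adjusted p of 0.05 (0% called; limma, Benjamini-Hochberg over all genes). Hao2 had the smallest adjusted p, 0.0746. At an unadjusted p under 0.05 there were 466 genes (2.13%), of which 294 (1.34%) were lower in HQ and 172 (0.787%) higher, while 1093 would be expected by chance if no gene differed. Of these calls 63.1% were lower in HQ, or 49.5% with quantile scaling. With slide as a block, the count at the same threshold was 952 (4.35%), with 413 lower (1.89%) and 539 higher (2.47%), and 41.4% of all genes lay below 0. The HQ livers lay entirely below the HFD livers for 20 genes (0.0915%) and entirely above them for 16 genes (0.0732%). Below, an expression level is a log2 signal minus the array's 75th percentile, so 0 marks that percentile, and a difference is the HQ mean minus the HFD mean on the same log2 scale with its standard error. Over all genes the median difference was -0.00, and 11127 genes (50.9%) lay below 0. With slide as a block the median over all genes was 0.06, beside which list medians given with that block are to be read. No difference between HQ and HFD given below passed the adjusted threshold, and genes picked for their small p show large differences by that choice.

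**Figure D1:**
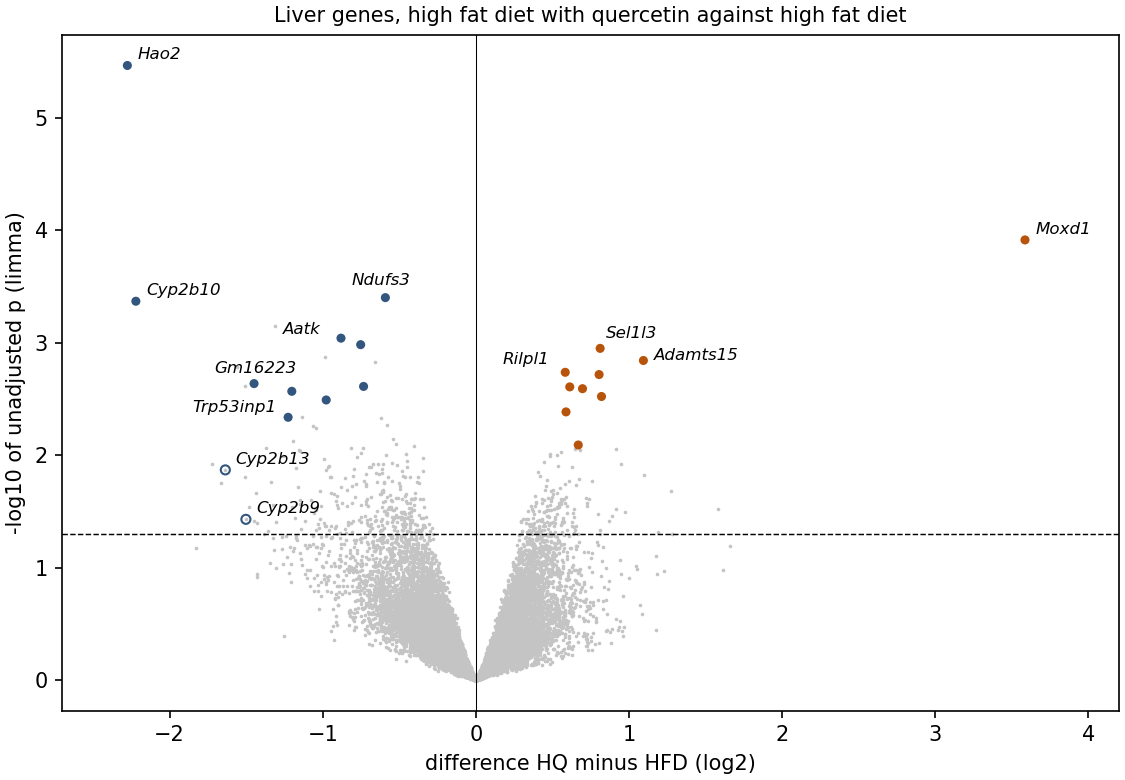
Difference between HQ and HFD for each of 21862 genes (horizontal axis, log2) against -log10 of its unadjusted limma p (vertical axis); filled points are the 10 genes with a symbol and the smallest p in each direction, open circles are Cyp2b13 and Cyp2b9, and the dashed line marks the threshold of 0.05. Of the filled points, Hao2 and Cyp2b10 lie farthest left at -2.28 and -2.22 and Moxd1 farthest right at 3.59, and no gene passed the adjusted threshold.

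Hao2 encodes a peroxisomal oxidase of long-chain 2-hydroxy acids and had the smallest p of all genes. Its level in HQ livers 1 to 5 was -4.28, -5.65, -6.05, -4.51 and -6.19, against a lowest of -4.03, a median of -3.00 and a highest of -2.37 in the 6 HFD livers. Every HQ liver lay below every HFD liver. The difference was -2.28 ± 0.39 (SE, 95% interval -3.07 to -1.48; unadjusted p = 3.41e-06, adjusted p = 0.0746 by limma). All 6 HFD livers measured Hao2 well above background and 0 of 5 HQ livers did, so the HQ level was near the limit of the arrays. The fitted means differ by 4.84-fold, a value that leaves out the spread between livers. Raising HQ signals to the dimmest measured probes of their arrays did not change it, since the HQ signals lay above those probes. Within the shared slides the difference was -1.50 for HQ 1 against HFD 1 and -3.81 for HQ 5 against HFD 4. With slide as a block it was -2.10, with an adjusted p of 0.386. Leaving out HQ 1, HQ 4 or HFD 2 gave adjusted p values of 0.0197, 0.0436 and 0.0269, and leaving out any other single liver gave 0.136 to 0.586. After background correction by normexp, another way of removing the local background, the difference was 0.17, with a median over all genes of 0.25. In the bulk liver RNA, fewer cells of a type and less RNA per cell cannot be told apart, for Hao2 and for every gene below.

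Hao2 also set HFD apart from the standard diet, where its 5 livers lay at -6.33 to -5.88 and the difference of HFD from SD was 3.13 (adjusted p = 0.0001 by limma). Every difference of HFD from SD, here and below, shares the 6 HFD arrays with HQ minus HFD. Opposite signs of those differences are therefore in part built in and are not separate evidence. Hao2 was not well above background in any of the 5 HQ or 5 SD livers, so the arrays do not show whether those groups differ. Of 34 measured hydroxy acid oxidases and peroxisomal genes, Hao2 among them, 16 lay below 0 and 18 above with a median difference of 0.02. Only Hao2 had an unadjusted p under 0.05, against 1.34% of all genes lower. Hao1, which encodes the glycolate oxidase of liver peroxisomes, differed by 0.04. Pex14, part of the docking machinery for protein import into peroxisomes, was picked for its small p outside that list. Its levels in HQ livers 1 to 5 were -2.26, -1.85, -1.07, -0.87 and -1.82 against -1.07, -0.71 and -0.04 (lowest, median and highest) in HFD, with overlapping groups and a difference of -0.98 ± 0.30.

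Of the 23 measured targets of CAR and PXR (27 listed), 19 lay below 0 in HQ minus HFD and 4 above, with a median of -0.25 against -0.00 for all genes. At an unadjusted p under 0.05, 5 were lower, against 1.34% of all genes, and 0 were higher. With slide as a block the median was -0.37 and 21 of 23 lay below 0. With that block 8 were lower at that threshold, against 1.89% of all genes. The count lower was 3 without HQ 2, HQ 5, HFD 3 or HFD 4, and with quantile scaling, median scaling or the deposited score. In these settings 164 to 357 of all 21862 genes were lower. With only probes well above background on all 28 arrays, 2 of 18 members were lower, against 220 of 15323 genes. The 5 members lower without a block were Cyp2b10, Cyp2b13, Cyp2b9, Cyp2c38 and Cyp2c37, all P450 enzymes. Averaged over the list and set against the mean of all 28 arrays, HQ livers 1 to 5 lay at -0.05, -0.19, 0.28, 0.01 and -0.43, and the HFD livers ran from 0.05 to 0.84. The groups overlapped, because HQ 3 lay above HFD 5 and level with HFD 2.

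Cyp2b10, the classic CAR target, was at -6.39, -4.07, -6.34, -6.29 and -5.64 in HQ livers 1 to 5 and at -4.82, -3.60 and -2.45 (lowest, median and highest) in HFD. HQ 2 alone reached the HFD range, and the other 4 HQ livers lay below every HFD liver. The difference was -2.22 ± 0.55 (95% interval -3.35 to -1.09, unadjusted p = 0.000427), or -2.51 with slide as a block and -2.66 and -2.82 within the shared slides. No HQ liver was well above background for this probe while all 6 HFD livers were. With dim HQ signals raised to the dimmest measured probes of their arrays, the group means differed by 4.48-fold. That value leaves out the spread between livers, which the interval above takes in. ENSMUST00000005477, the probe in the same region, was well above background in all 5 HQ and all 6 HFD livers. Its mean was -2.61 in HQ and -1.10 in HFD, a difference of -1.51 ± 0.45. All 5 HQ livers lay below the HFD mean, and the groups overlapped. With normexp the Cyp2b10 difference was 0.27.

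Cyp2b13 was at 0.97, 0.68, 0.35, -0.04 and -2.02 in HQ livers 1 to 5 and at 1.22, 1.51 and 2.32 (lowest, median and highest) in HFD. The groups did not overlap, although HQ 1 and HFD 1, which shared a slide, differed by only -0.26, while HQ 5 and HFD 4 differed by -3.73. The difference was -1.64 ± 0.62 (95% interval -2.91 to -0.37, unadjusted p = 0.0135), and a second Cyp2b13 probe gave -1.66. Cyp2b9 was at 3.45, 3.30, 2.23, 2.17 and -0.07 in HQ and at 3.28, 3.71 and 4.15 in HFD, so HQ 1 and HQ 2 lay inside the HFD range. Its difference was -1.50 ± 0.68 (95% interval -2.91 to -0.10, unadjusted p = 0.0371), and leaving out 1 liver at a time moved it between -1.81 and -0.93. HQ 5 was the lowest liver for both genes, and the shared slides gave -0.01 and -4.04 for Cyp2b9.

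The other CAR and PXR members gave smaller differences. Cyp2c38, an arachidonic acid metabolising P450, was at -3.34, -3.85, -1.11, -2.06 and -2.84 in HQ and at -2.27, -1.79 and -0.21 in HFD, with a difference of -1.15 ± 0.48. Cyp2c37 was at 6.89, 5.60, 6.91 and 6.71 in HQ livers 1 to 4, with no usable value in HQ 5, and at 6.73, 7.32 and 7.73 in HFD, with a difference of -0.80 ± 0.31. Both genes overlapped between the groups. The receptors themselves differed by -0.23 (CAR, Nr1i3) and -0.11 (PXR, Nr1i2), and Cyp3a11, the usual PXR readout, by -0.26 ± 0.32. Of 20 other P450 genes of the Cyp2 family, 16 lay below 0 with a median of -0.10. At an unadjusted p under 0.05, 1 was lower, against 1.34% of all genes.

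**Figure D2:**
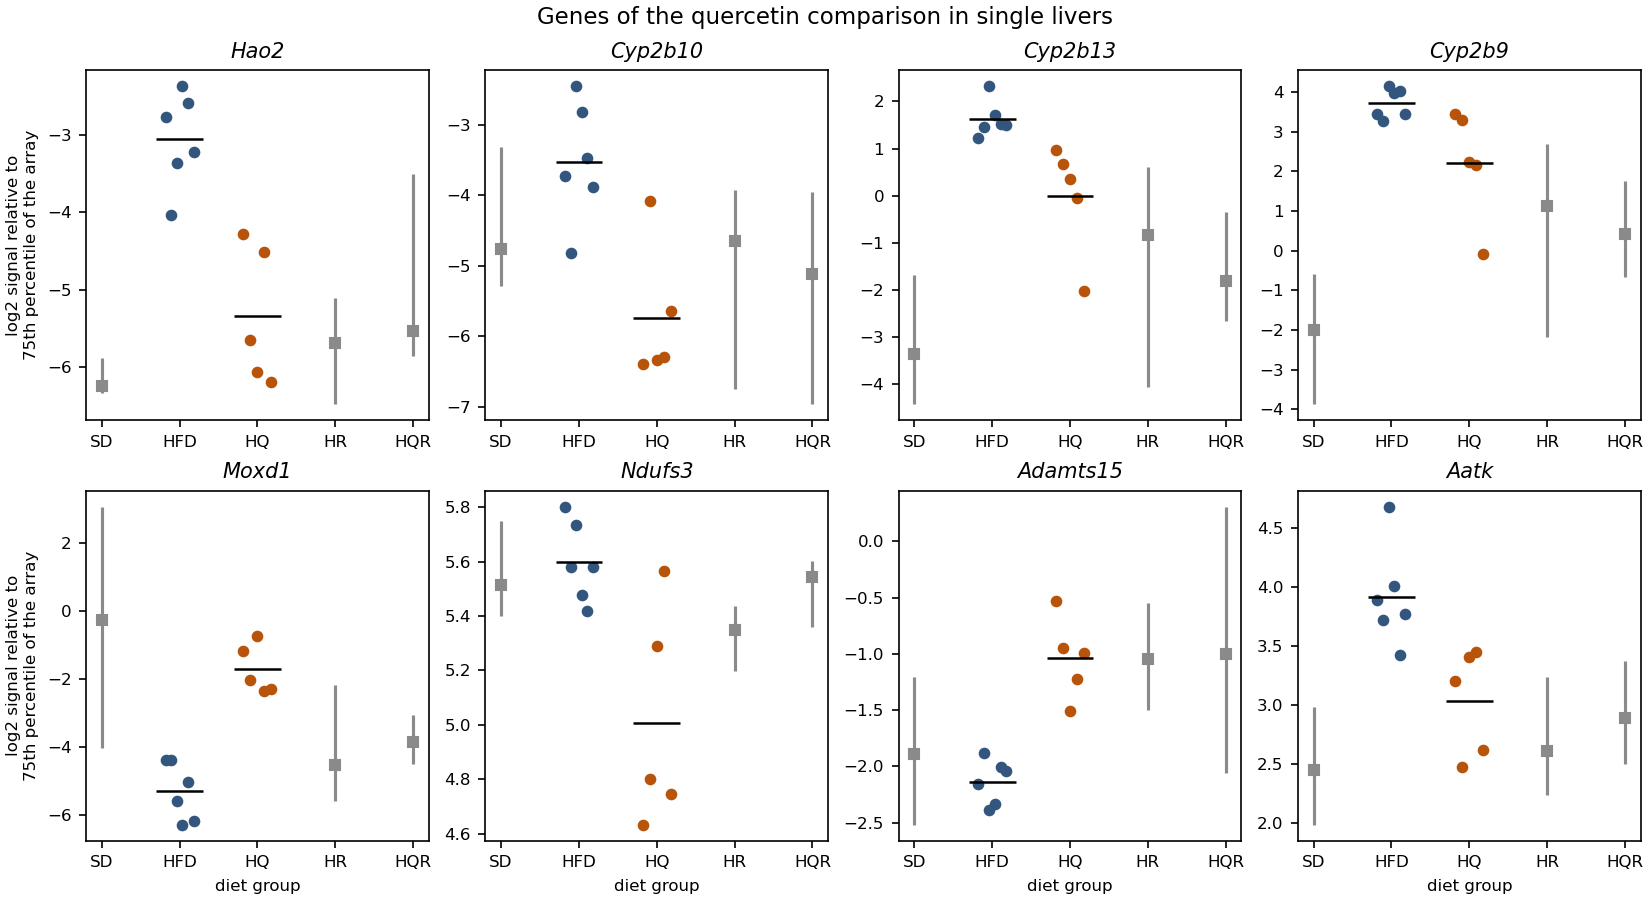
Level of 8 genes in each liver (vertical axis, log2 signal minus the array's 75th percentile); points are single HFD and HQ livers with a bar at the mean, and squares with lines give the median and the lowest to highest liver of SD, HR and HQR. The HQ and HFD points do not overlap for Hao2, Cyp2b13, Moxd1 and Adamts15 and do for the other genes.

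Hao2, Cyp2b10, Cyp2b13, Cyp2b9 and Cyp2c39 were also the 5 of 23 female-biased genes that were lower at an unadjusted p under 0.05, against 1.34% of all genes, and 0 were higher. That count was 2 without HQ 5 and 3 without HQ 4, HFD 3, HFD 4 or HFD 5. Cyp2b10, Cyp2b13 and Cyp2b9 are also members of the CAR and PXR list, so the counts of these lists are not separate. Both lists were chosen with earlier results of these data known, so their counts are descriptions and test no enrichment. Of the 23 female-biased genes, 17 lay below 0 with a median of -0.16. That median became -0.48 with slide as a block and 0.03 with arrays weighted by their quality. Without HFD 3, 12 lay below 0 and 11 above with a median of -0.023, and without HQ 2 the median was -0.066 and without HQ 1 -0.080. Cyp2a4, a testosterone hydroxylase, and its close paralog Cyp2a5 differed by -0.56 and -0.61, and by -1.16 and -1.17 with slide as a block. Of 21 male-biased genes, 13 lay above 0 and 8 below, with a median of 0.08. Among those, Moxd1 alone had an unadjusted p under 0.05, against 0.787% of all genes in that direction.

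Moxd1 encodes a copper monooxygenase-like protein related to dopamine beta-hydroxylase, and it had the largest difference among the genes picked for a small p. It was at -1.20, -2.03, -0.74, -2.38 and -2.31 in HQ livers 1 to 5 and at -6.30, -5.31 and -4.39 (lowest, median and highest) in HFD. Every HQ liver lay above every HFD liver. The difference was 3.59 ± 0.80 (95% interval 1.95 to 5.22, unadjusted p = 0.000122), or 3.79 with slide as a block and 3.20 and 4.00 within the shared slides. All 5 HQ livers measured Moxd1 well above background, and 1 of 6 HFD livers did. The 5 SD livers ranged from -4.03 to 3.06 with a median of -0.26, and HFD differed from SD by -5.18 (adjusted p = 0.0016 by limma). With the HQ and HFD arrays fitted alone, Moxd1 had the smallest adjusted p of all genes, 0.0590.

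The remaining genes with small p among those lower in HQ had smaller differences. Ndufs3, a core subunit of respiratory complex I, was at 4.63, 4.80, 5.29, 5.57 and 4.75 in HQ and at 5.42, 5.58 and 5.80 in HFD, with only HQ 4 inside the HFD range and a difference of -0.59 ± 0.15. Aatk, the apoptosis-associated tyrosine kinase, was at 3.20, 2.48, 3.41, 3.45 and 2.62 in HQ and at 3.42, 3.83 and 4.68 in HFD, with HQ 4 just above the lowest HFD liver and a difference of -0.88 ± 0.24. Aatk was also 1 of the 25 genes (0.114%) that separated HFD from SD, by 1.41 (adjusted p = 0.0043 by limma). Trp53inp1, which encodes a p53-inducible stress protein, was at 1.84, 1.80, 2.60, 2.55 and 1.92 in HQ and at 2.29, 3.19 and 4.48 in HFD. It differed by -1.20 ± 0.36 and by -1.01 on its other probe, with overlapping groups.

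Rnf170, an ubiquitin ligase of the endoplasmic reticulum, was at -0.32, -0.61, 0.21, -0.06 and -0.55 in HQ and at -0.25, 0.41 and 1.24 in HFD, a difference of -0.75 ± 0.20 with overlap. For Cdh2, the N-cadherin of hepatocyte junctions, the levels were 1.16, 0.95, 1.72, 1.47 and 1.07 in HQ and 1.64, 2.01 and 2.59 in HFD, a difference of -0.73 ± 0.22. Its other probes gave 0.01 and -0.54, so the probes of Cdh2 disagreed. F2rl2, a protease-activated receptor that serves thrombin signalling, was at -6.26, -5.33, -6.12, -5.62 and -5.81 in HQ and at -4.92, -4.75 and -3.65 in HFD. Its groups did not overlap, but its signal exceeded background clearly in only 2 of 6 HFD livers and 0 of 5 HQ livers, and the difference was -1.23 ± 0.40. The predicted gene Gm16223 differed by -1.45 ± 0.43 with overlap. With normexp, F2rl2 and Gm16223 gave 0.64 and 0.44.

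Among the 10 genes with the smallest p that were higher in HQ, Moxd1 came first, and 3 others did not overlap between the groups. Adamts15, a secreted metalloprotease that cleaves proteoglycans, was at -0.53, -0.95, -1.51, -1.23 and -0.99 in HQ and at -2.39, -2.10 and -1.88 in HFD, so the groups did not overlap. The difference was 1.10 ± 0.31, which is 2.14-fold, or 1.52 with slide as a block and 1.63 and 1.35 within the shared slides. Sel1l3, a membrane protein of the Sel1-repeat family, was at 0.70, 1.44, 1.02, 0.49 and 1.24 in HQ and at -0.34, 0.27 and 0.43 in HFD, again without overlap. Its difference was 0.81 ± 0.22. Its other probes gave -0.25 and 0.45, but both were too dim to decide whether the probes of Sel1l3 differ. The former cleared background plainly in no HQ liver and 1 HFD liver, the latter in no liver of either group. Rilpl1, which acts in cilium-related transport, was at -2.60, -2.49, -2.30, -2.38 and -2.26 in HQ and at -3.38, -2.96 and -2.68 in HFD, with no overlap and a difference of 0.58 ± 0.17. The last 6 genes overlapped between groups: Crybg2 at 0.81 ± 0.23, Tnxb (tenascin-X of the matrix) at 0.82 ± 0.25, Eml1 (a microtubule-binding protein) at 0.70 ± 0.21, Ctla2a (a cysteine protease inhibitor) at 0.67 ± 0.23, Xaf1 (an interferon-inducible apoptosis factor) at 0.61 ± 0.18 and Alox12 (the arachidonate 12-lipoxygenase) at 0.59 ± 0.19.

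Genes that handle quercetin itself lay on both sides of 0. Of 28 measured conjugating enzymes and transporters (34 listed), 18 lay below 0 and 10 above with a median of -0.13, and 2 were lower at an unadjusted p under 0.05, against 1.34% of all genes. Sult1d1, a sulfotransferase, was at 2.45, 1.10, 3.32, 2.48 and 2.87 in HQ and at 2.44, 3.34 and 4.73 in HFD, a difference of -1.08 ± 0.45 with overlap. Ugt1a6b, a glucuronosyltransferase, differed by -0.33 ± 0.15. Ugt1a1, Abcc2 and Sult1a1 differed by -0.04, -0.06 and -0.38, and Ugt2a3 and Ugt2b34, further glucuronosyltransferases, by -0.64 and 0.70.

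Targets of the aryl hydrocarbon receptor lay mostly below 0, in 9 of 12, with a median of -0.29, and the median was 0.12 with normexp. Ugt1a6b, which was lower, was the 1 member with an unadjusted p under 0.05, against 1.34% of all genes in that direction. Cyp1a1, the most inducible target, was at -1.11, -3.50, -3.96, -3.84 and -3.79 in HQ and at -3.06, -2.58 and -1.63 in HFD. HQ 1 lay above every HFD liver while the other 4 HQ livers lay below them all, and the difference was -0.74 ± 0.44. Cyp1a2 differed by -0.29 ± 0.41, and the receptor Ahr and its repressor Ahrr by -0.61 ± 0.31 and 0.29.

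Of 38 NRF2 targets and antioxidant genes, 25 lay below 0 and 13 above, with a median of -0.10 that ran from -0.32 to -0.02 over all settings. At an unadjusted p under 0.05, 4 were lower and 0 higher, against 1.34% and 0.787% of all genes. The lower count was 1 without HQ 1 or HFD 4, and the median was -0.019 without HQ 2. Gsta2, a glutathione S-transferase, was at -0.06, -0.25, 0.25, 0.15 and -0.48 in HQ and at -0.07, 0.66 and 1.38 in HFD, a difference of -0.71 ± 0.30 with overlap. Cbr1 (carbonyl reductase), Txnrd1 (thioredoxin reductase) and Gclm (the modifier subunit of glutathione synthesis) differed by -0.61 ± 0.25, -0.51 ± 0.19 and -0.39 ± 0.19, and Txnrd1 had no usable value in HQ 5. The standard readouts Nqo1 and Hmox1 differed by -0.32 ± 0.42 (95% interval -1.17 to 0.54) and 0.29 ± 0.37 (-0.47 to 1.04). Nfe2l2, which encodes NRF2, differed by -0.03.

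Subunits of the respiratory chain lay below 0 in most cases, but single livers moved that count. Of 37 complex I genes, 32 lay below 0 with a median of -0.24, and of 39 genes of complexes II to V, 34 with a median of -0.16. Ndufs3 and Cox7c, both lower, were the only members with an unadjusted p under 0.05, against 1.34% of all genes in that direction. Averaged over complex I and set against the mean of all arrays, HQ livers 1 to 5 lay at -0.30, -1.03, 0.10, 0.39 and 0.47, and HFD livers ran from -0.19 to 0.67. HQ 2 lay far below the other livers, and the group medians were 0.10 in HQ and 0.09 in HFD. Without HQ 2, 15 complex I genes lay below 0 and 22 above with a median of 0.04, and complexes II to V gave 14 and 25 with a median of 0.10. Without HFD 3, 26 complex I genes lay below 0 (median -0.094) and 24 of complexes II to V (median -0.049), and with array weights 21 and 20 did. Cox7c itself was at 3.79, 1.15, 2.37, 3.06 and 2.31 in HQ and at 3.08, 3.21 and 4.13 in HFD, a difference of -0.90 ± 0.39 with overlap.

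Genes of lipid handling did not separate the groups. Of 27 lipogenic genes, 14 lay below 0 with a median of -0.04. Dgat2, the last enzyme of triglyceride synthesis, was the 1 with an unadjusted p under 0.05 (-0.42 ± 0.19), against 1.34% of all genes lower. Fasn, Scd1 and Srebf1 differed by -0.24 ± 0.63, -0.37 ± 0.55 and -0.50 ± 0.59. Of 25 lipid droplet and PPARgamma genes, 17 lay below 0 with a median of -0.11. Lpl, lipoprotein lipase, was the 1 with an unadjusted p under 0.05 (0.74 ± 0.31), against 0.787% of all genes higher. Cidea, a droplet fusion protein, was at 4.78, 2.47, 6.21, 4.46 and 2.09 in HQ and at 3.62, 4.65 and 6.69 in HFD, a difference of -0.79 ± 0.80. Cfd, which encodes adipsin, was at 4.75, 4.13, 5.57, 6.25 and 2.60 in HQ and at 5.50, 5.65 and 6.37 in HFD, a difference of -1.18 ± 0.58. For both genes the groups overlapped and HQ 5 was the lowest liver. Cidec, Pparg and Cd36 differed by 0.08 ± 0.58, -0.11 ± 0.20 and -0.70 ± 0.54.

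Among the other metabolic lists, 23 of 35 PPARalpha and fatty acid oxidation genes lay below 0 (median -0.09), as did 20 of 25 cholesterol genes (median -0.17), and neither list had a member with an unadjusted p under 0.05. The median of the list of PPARalpha targets and fatty acid oxidation was 0.16 without HQ 2 and 0.094 with array weights. With slide as a block it was -0.20, with 30 of 35 below 0. With that block 2 were lower at an unadjusted p under 0.05, against 1.89% of all genes. Bile acid genes lay on both sides (15 below, 11 above, median -0.04), and Cyp7a1, the enzyme that limits bile acid production, differed by -0.10 ± 0.60. Apolipoprotein and lipoprotein genes had a median of 0.09. Of 19 glucose genes 13 lay below 0 with a median of -0.11, and Slc2a2, the hepatocyte glucose transporter, was at 1.85, 3.54, 3.06, 3.00 and 2.23 in HQ and at 3.26, 3.52 and 3.86 in HFD, a difference of -0.82 ± 0.29. Of 22 sirtuin, AMPK and PGC-1alpha genes, 9 lay below 0 and 13 above with a median of 0.04, and none had an unadjusted p under 0.05. Sirt1 differed by 0.27 ± 0.27 (95% interval -0.28 to 0.82) and Ppargc1a by 0.06 ± 0.29 (-0.54 to 0.66).

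Asns, the asparagine synthetase of the amino acid stress response, was at -0.28, 0.24, 1.60, 0.32 and -0.50 in HQ and at -1.88, -1.10 and -0.10 in HFD, with overlap. The difference was 1.28 ± 0.52, or 2.42-fold, and HFD differed from SD by -3.15 (adjusted p = 0.0038 by limma). The other 19 of 20 genes of the amino acid response had unadjusted p values of 0.05 or more, and the list's median was -0.05. Of all genes, 0.787% were higher at an unadjusted p under 0.05. Among 16 urea cycle and glutamine genes, 13 lay below 0 with a median of -0.23, or 15 with -0.46 with slide as a block. With array weights 10 lay below 0 with a median of -0.062, and the median was -0.11 without HQ 1 and -0.13 without HFD 3. Otc, which encodes ornithine transcarbamylase, was at 5.82, 5.36, 5.74, 6.33 and 6.39 in HQ and at 6.10, 6.74 and 7.25 in HFD, a difference of -0.75 ± 0.27 with overlap. Clock genes had a median of -0.24 with 0 of 19 at an unadjusted p under 0.05. With slide as a block the median was -0.54 and 4 were lower, against 1.89% of all genes with that block. With a random slide block 3 were lower, against 437 of all 21862 genes. The median was 0.01 with array weights and -0.067 without HQ 1.

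Further genes, of a fixed set chosen with earlier results of these data known, did not separate the groups. Enho, which encodes the secreted peptide adropin, differed by 0.29 ± 0.25, Fgf21, a hepatic hormone of fasting, by -0.32 ± 0.83, and Adipoq, adiponectin, by 0.22 ± 0.60. Tff3 (a trefoil peptide) and Pon1 (paraoxonase) differed by 0.43 ± 0.30 and -0.33 ± 0.23, and the olfactory receptor gene Olfr701 by -0.61 ± 0.36, with overlapping groups for all 6 genes.

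**Figure D3:**
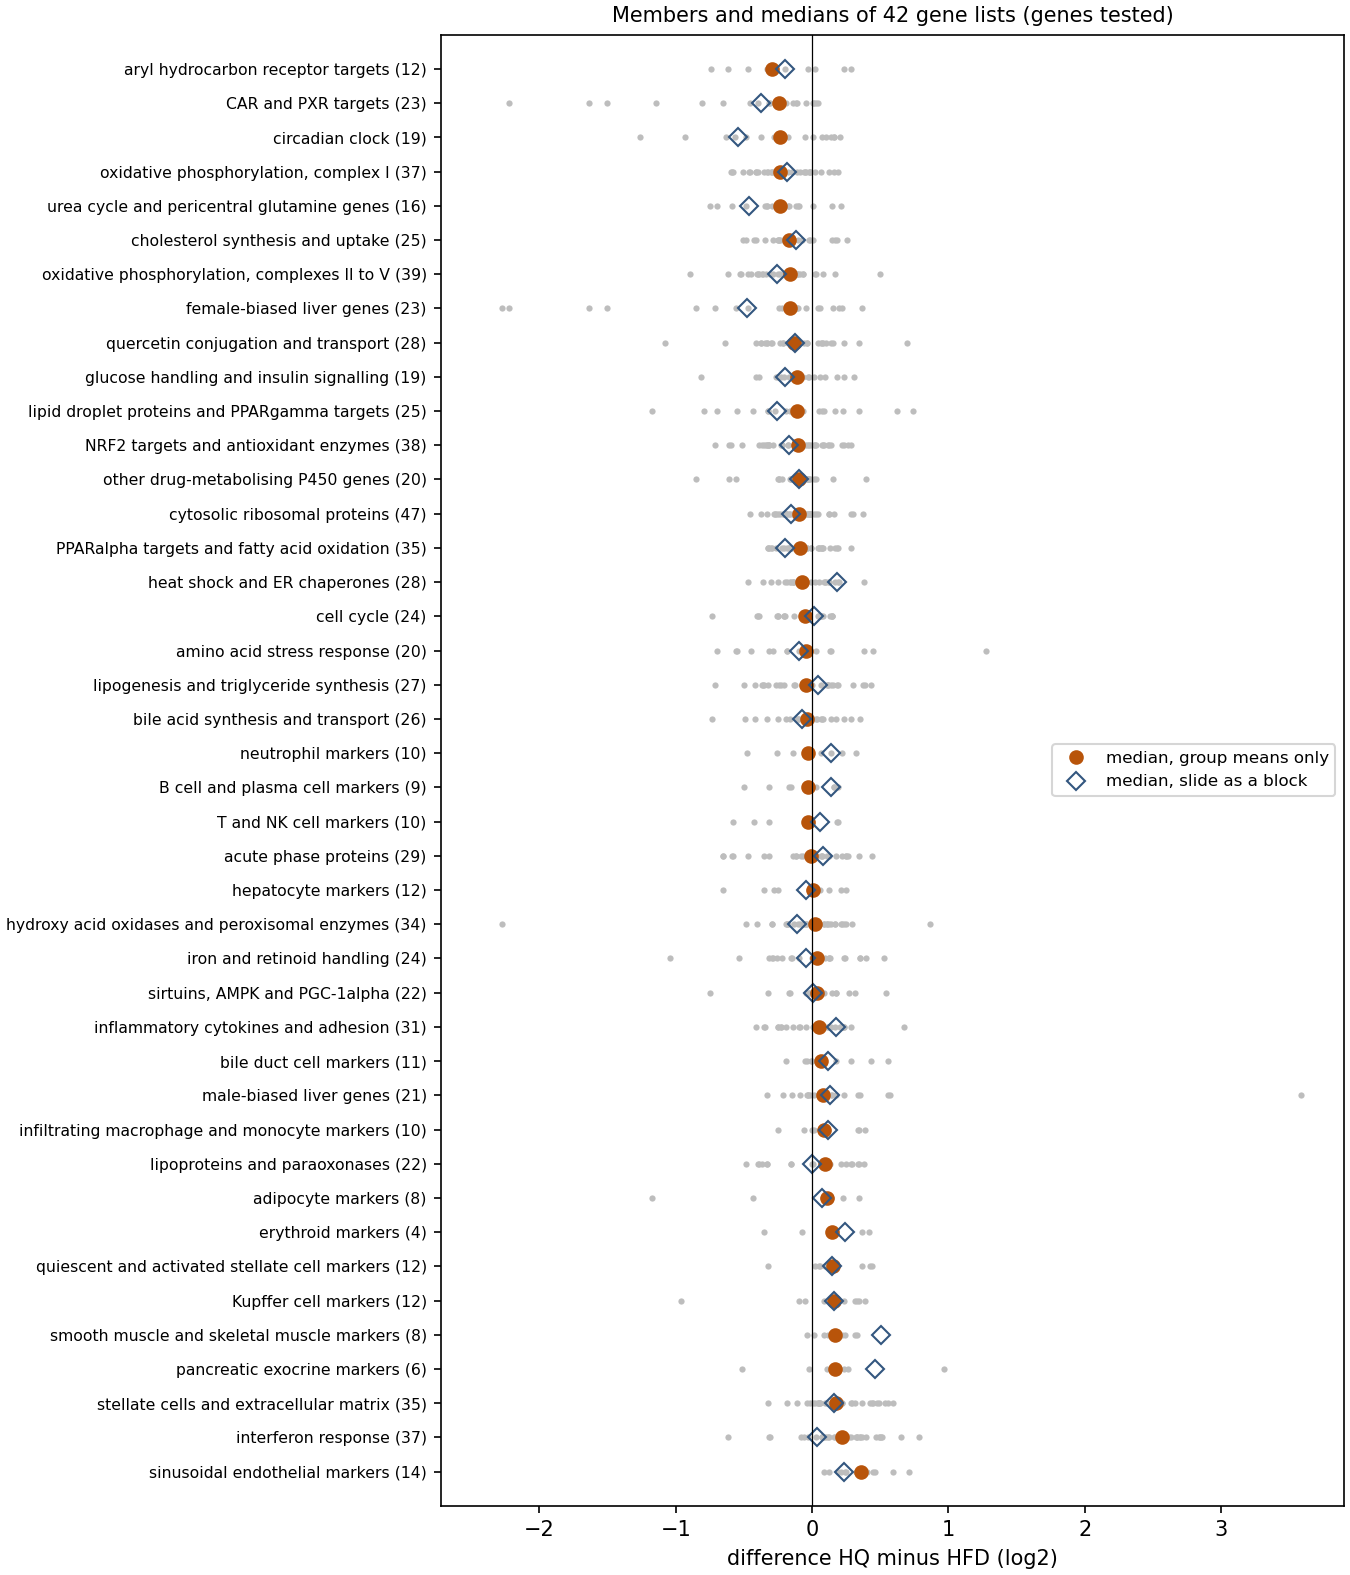
Differences between HQ and HFD (horizontal axis, log2) for the measured members of 42 gene lists; grey dots are genes, orange circles list medians and blue diamonds list medians with slide as a block. The CAR and PXR list has a median of -0.25, or -0.37 with slide as a block, and the sinusoidal endothelial list 0.36, or 0.24.

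Lists of interferon, matrix, stellate cell, sinusoidal endothelial and Kupffer cell genes lay mostly above 0. Of 37 interferon-stimulated genes, 31 lay above 0, against 49.1% of all genes, with a median of 0.22, and 2 were higher at an unadjusted p under 0.05, against 0.787% of all genes. With slide as a block the median was 0.03, against 0.06 for all genes with that block, with 19 above and 18 below. Oas1a, which encodes an oligoadenylate synthetase, was at -0.82, -0.46, -0.38, -0.63 and -0.36 in HQ and at -1.30, -1.04 and -0.65 in HFD, a difference of 0.51 ± 0.21 with overlap. The second was Gbp3, a guanylate-binding protein, at 0.51 ± 0.22. Cytokine and adhesion genes had a median of 0.05, and Tnf and Ccl2 differed by -0.14 ± 0.37 and -0.23 ± 0.35.

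Of 35 extracellular matrix genes, 30 lay above 0 with a median of 0.18, or 25 with 0.16 with slide as a block. Loxl2, a collagen cross-linking oxidase, was at 0.04, -0.28, -0.85, -0.34 and -0.61 in HQ and at -1.46, -0.96 and -0.51 in HFD, a difference of 0.56 ± 0.23 with overlap, and Mmp2, a gelatinase, differed by 0.59 ± 0.26. Stellate cell markers lay above 0 in 11 of 12 with a median of 0.15, and their summed level was 34.7 to 114 times the array's 75th percentile in HQ and 32.0 to 71.4 times in HFD. Smooth and skeletal muscle markers lay above 0 in 7 of 8 with a median of 0.17, and their summed level was 1.07 to 19.5 in HQ and 1.09 to 6.87 in HFD, in the same unit. Pancreatic exocrine markers had a median of 0.17 over 6 measured, with summed levels of 1.35 to 9.36 in HQ and 1.59 to 3.12 in HFD, and Cela2a was not measured above the filter. HQ 1 had the highest list mean of all 11 livers for pancreatic markers (2.06), muscle markers (1.69), stellate cell markers (0.85) and matrix genes (0.49). Without HQ 1 the median was -0.22 for pancreatic exocrine markers and -0.12 for smooth muscle and skeletal muscle markers. For matrix genes it was 0.16 without HQ 1, with 25 of 35 above 0. The part of these cells in the matrix values was not tested.

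All 14 sinusoidal endothelial markers lay above 0, against 49.1% of all genes, with a median of 0.36, and 0 had an unadjusted p under 0.05. HQ livers 1 to 5 averaged 0.04, 0.02, 0.22, 0.11 and 0.26 over this list relative to the mean of all arrays, and HFD livers 1 to 6 averaged -0.08, 0.17, -1.02, -0.33, 0.01 and -0.04. HFD 3 lay far below the rest, and without it 12 of 14 lay above 0 with a median of 0.17. The summed level was 78.0 to 107 in HQ and 41.7 to 91.8 in HFD. Kupffer cell markers lay above 0 in 9 of 12 with a median of 0.16, and Timd4, a receptor of resident Kupffer cells, went the other way. Timd4 was at -6.42, -4.23, -5.19, -4.10 and -4.19 in HQ and at -4.45, -3.94 and -3.04 in HFD. It exceeded background clearly in 0 of 5 HQ and 5 of 6 HFD livers, and the groups overlapped. The difference was -0.96 (unadjusted p = 0.0124 by limma). With dim HQ signals raised to the dimmest measured probes of their arrays, the group means differed by 1.92-fold, which leaves out the spread between livers. Infiltrating macrophage, bile duct, T and NK cell, B cell and neutrophil markers had medians between -0.03 and 0.09, hepatocyte markers 0.00 and adipocyte markers 0.11. T and NK cell, B cell and neutrophil markers lay below 0 in 8 of 10, 5 of 9 and 6 of 10. Infiltrating macrophage and bile duct markers lay below 0 in 3 of 10 and 4 of 11.

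**Figure D4:**
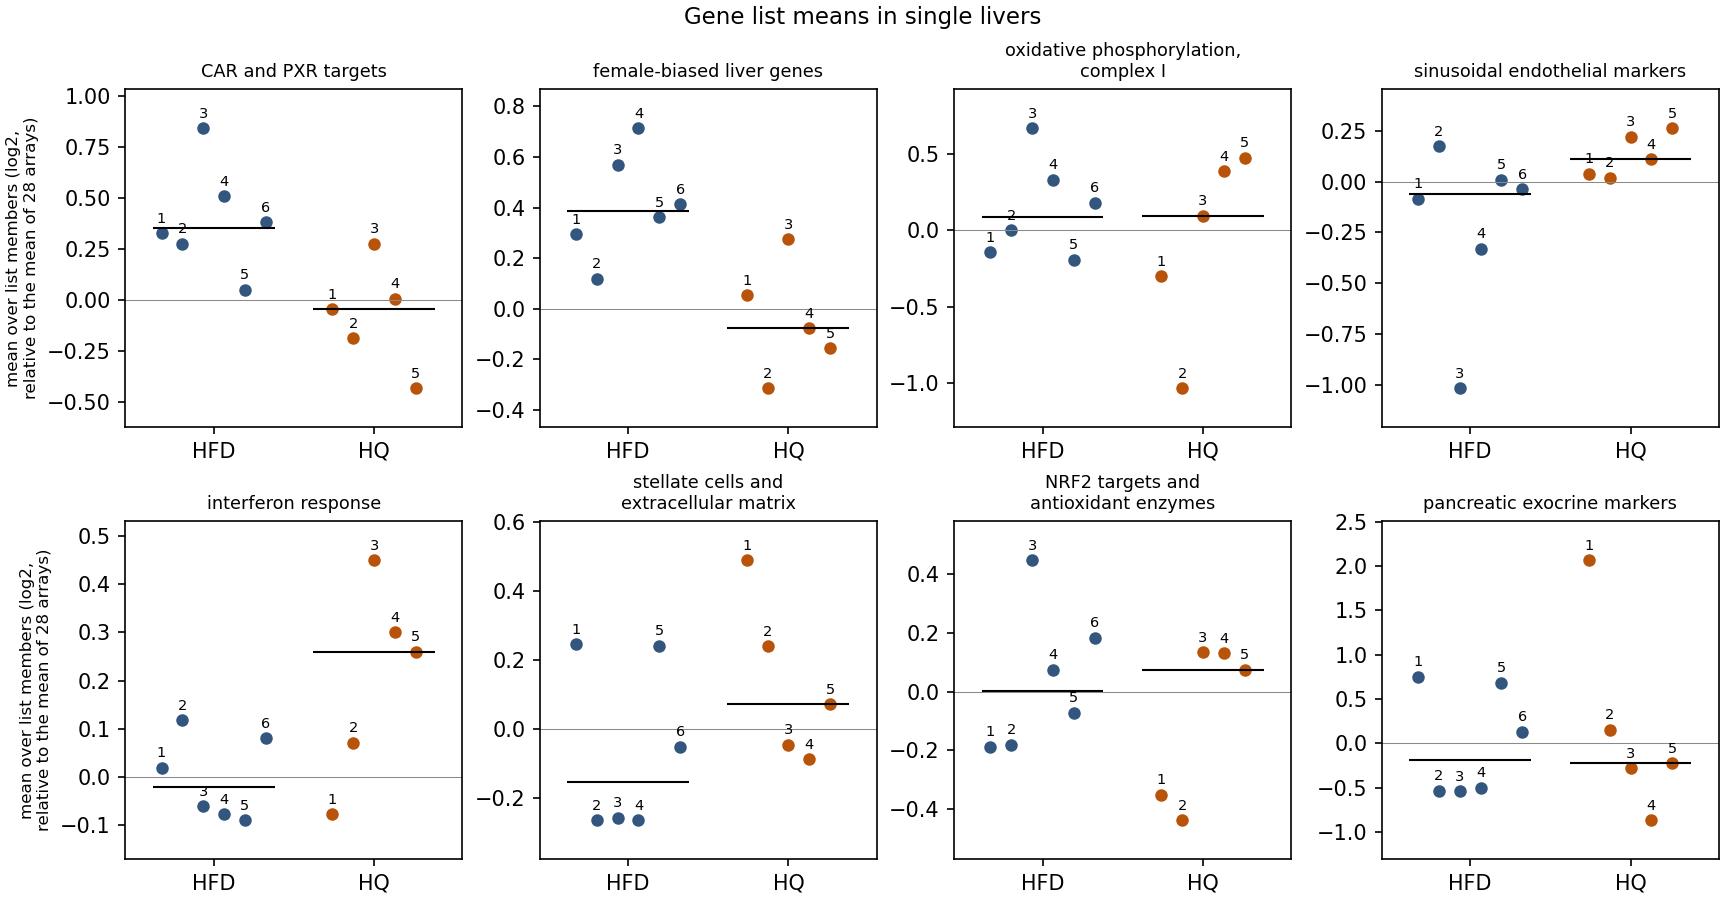
Mean of 8 gene lists in each HFD and HQ liver (vertical axis, log2 relative to the mean of all 28 arrays); numbers give the replicate and lines the group median. HQ 2 lies at -1.03 for complex I and HFD 3 at -1.02 for sinusoidal endothelium, apart from the other livers of their group.

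The remaining lists had few members with small p. Of 47 cytosolic ribosomal proteins, 38 genes lay below 0 with a median of -0.10, or 0.035 without HQ 2. Acute phase genes had a median of -0.01, cell cycle genes -0.05, and iron and retinoid genes 0.03. Heat shock and endoplasmic reticulum chaperone genes had a median of -0.07, or 0.18 with slide as a block.

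At an equal total dose of added compound, 0 genes passed an adjusted p of 0.05 between HQ and HR (0%, 282 at an unadjusted p under 0.05) and 0 between HQ and HQR (0%, 312). These comparisons hold no HFD array. Hao2 was well above background in 0 of 5 HQ, 0 of 6 HR and 1 of 6 HQR livers, and Cyp2b10 in 0, 1 and 1, so no difference between these diets is given for either gene. Adamts15 differed by -0.04 (95% interval -0.68 to 0.59) between HQ and HR and by -0.05 (-0.68 to 0.58) between HQ and HQR, intervals that hold 0 and also differences of more than 0.5 in each direction. Cyp2b13 gave 1.14 (-0.13 to 2.41) and 1.56 (0.29 to 2.83), Cyp2b9 gave 1.39 (-0.01 to 2.80) and 1.67 (0.27 to 3.08), and Moxd1 gave 2.65 (1.02 to 4.29) and 2.07 (0.44 to 3.71). None of these passed the adjusted threshold of limma, where Moxd1 had an adjusted p of 1.00 in both. HQR holds quercetin at a lower dose than HQ, so that comparison changes dose and compound together.

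The differences of HQ, HR and HQR from HFD share the 6 HFD arrays and are given side by side. For Hao2 they were -2.28, -2.75 and -2.20, and that of HR passed the adjusted threshold (adjusted p = 0.00144 by limma, 1 of 2 genes or 0.00915% called). For Cyp2b10 they were -2.22, -1.35 and -1.71, for Cyp2b13 -1.64, -2.78 and -3.19, and for Cyp2b9 -1.50, -2.89 and -3.17. For Moxd1 they were 3.59, 0.93 and 1.51, and for Adamts15 1.10, 1.14 and 1.15.

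Between HQ and the standard diet, 8 genes (0.0366%) passed the adjusted threshold. Cfd, Cidea, Cidec, Cyp2b9 and Drc7 were higher in HQ, together with a probe with no gene name, and Enho and H2-Q1 were lower. Cyp2b9 lay 4.47 ± 0.71 above SD (adjusted p = 0.0131 by limma) and Cfd 4.28 above it (adjusted p = 0.0032). The 5 SD livers lay at -3.87 to -0.58 for Cyp2b9, all below the 5 HQ livers. For that gene HFD lay 5.97 above SD, and among the HQ livers HQ 5 was nearest to the SD range.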

How the data were processed

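Liver RNA was labelled with Cy3 and hybridised to 1-colour Agilent mouse genome arrays. The authors deposited 1 scanner file per array, with processed intensity per spot from Agilent Feature Extraction 10.5.1.1, per the file headers. The table of the whole series that the authors deposited was treated as a score of unstated scale: log2 processed signal rose by 3.25 per unit of it, its column medians ran from -0.169 to -0.0992, its direction and lack of gene centring were read from that match (r of at least 0.999923 on each array), its log base stays unknown, and it served as an alternative.

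Of 45018 spots, 43379 were not controls. Spots of a probe were averaged, log2 values were set to 0 at each array's 75th percentile, and probes well above background on at least 5 arrays were kept (32095 of 41174). The probe with the highest mean level stood for a gene, which gave 21862 genes. Outlier-flagged spots were left out, which left 186 genes without a value on at least 1 array. All 28 arrays were fitted with limma 3.58.1 in R 4.3.3 with 5 group means, and p-values were adjusted by Benjamini-Hochberg. Each array is a separate mouse, so precision is set by the number of mice. The script was tested on simulated data.

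The text names genes past an adjusted p of 0.05, the 10 with the smallest p in each direction that have a symbol, members of gene lists with small p and a set of fixed genes. The arrays, lists and fixed genes were chosen with earlier results of these data known. Timd4, ENSMUST00000005477 and further list members were named after their values were seen. Alternatives were quantile and median scaling, normexp with an offset of 50, other probe filters and summaries, the deposited score, HQ and HFD alone, trended robust variance, array weights, blocks for slide, for scan day or for replicate number, and each liver left out. 1 further gene chosen for this set is not reported here.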

Additional observations from a re-analysis of the deposited data

Results flagged for a closer look

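A gap test for single livers, which chance passes in about 1 in 20 groups, picked 3 of 96 gene groups and 2 of 84 list groups. For F2rl2, HFD 5 lay at -3.65, with the nearest HFD liver at -4.71 and the far end at -4.92. For Tnxb, HFD 3 lay at -1.12, with the nearest at -0.43 and the far end at -0.03. For Cyp1a1, HQ 1 lay at -1.11, with the nearest HQ liver at -3.50 and the far end at -3.96. For the lipid droplet and PPARgamma list, the mean of HFD 3 was 0.87 relative to all arrays, with the nearest HFD liver at 0.29 and the far end at -0.04. For the sirtuin, AMPK and PGC-1alpha list, the mean of HQ 3 was 0.17, with the nearest HQ liver at -0.04 and the far end at -0.10.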

How the results depend on the processing

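The count past an adjusted p of 0.05 was 1 (Hao2) with quantile scaling, median scaling, the deposited score, array weights and slide as a random block, and 0 to 1 with 1 liver left out. The count lower at an unadjusted p under 0.05 was 170 with median scaling, 528 with normexp, 451 with array weights, and 164 (without HFD 3) to 451 (without HQ 4) with 1 liver left out; it was 192 without HQ 2. The count higher was 301 with quantile scaling, 112 with median scaling, 1874 with normexp, 1199 with no filter, 539 with slide as a block, 336 with a random slide block, and 72 (without HFD 3) to 291 (without HQ 4), with 261, 85, 84 and 262 without HQ 1, HQ 2, HFD 4 and HFD 5. The lower share of these calls was 63.1%, against 49.5% with quantile scaling, 22.0% with normexp, 20.0% with no filter and 43.4% with slide as a block. Normexp moved the median of all genes to 0.25. The replicate numbers do not pair the livers: same-numbered livers correlated at 0.571, -0.267, 0.450, 0.613 and -0.261, and only number 1 shared a slide. With the replicate number as a block, 423 genes were lower and 323 higher, and Hao2 had an adjusted p of 0.0788.

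Differences turned sign in these cases. With normexp: Hao2 0.17, Cyp2b10 0.27, Gm16223 0.44, F2rl2 0.64, Cidec -0.24, Nqo1 0.10, Cyp1a1 0.31, Ppargc1a -0.14, Tnf 0.66 and Olfr701 0.078. With slide as a block: Cidec -0.33, Pparg 0.11, Fasn 0.020, Ppargc1a -0.43 and Tnf 0.018, and with it as a random block Cidec -0.069 and Ppargc1a -0.18. With scan day as a block: Cidec -0.39, Ppargc1a -0.074 and Tnf 0.054. With array weights: Scd1 0.015, Cyp7a1 0.67, Fgf21 0.090, Nqo1 0.13, Cyp1a2 0.043, Tnf 0.029 and Adipoq -0.25. With the replicate block: Fasn 0.011 and Ppargc1a -0.083. With the mean of all probes: Cyp7a1 0.025 and Ppargc1a -0.16. With 1 liver left out, the ranges were Cidec -0.18 to 0.37, Scd1 -0.71 to 0.079, Fasn -0.63 to 0.15, Cyp7a1 -0.53 to 0.41, Fgf21 -0.73 to 0.048, Nqo1 -0.54 to 0.063, Cyp1a2 -0.49 to 0.0041, Ppargc1a -0.079 to 0.25, Tnf -0.38 to 0.086 and Adipoq -0.26 to 0.58. The offset of normexp shrinks log2 differences of dim genes, and the cause of the sign changes was not tested. Of 1050 list medians under the alternatives, 19 moved by at least the SD of the list's mean over the HQ livers. Smaller moves can turn a sign and are not counted there. The median turned sign in 12 of 25 alternatives for acute phase proteins and 11 for hepatocyte markers. It did so in 10 for hydroxy acid oxidases and peroxisomal enzymes and in 0 for CAR and PXR targets. With a filter of all 28 arrays Hao2 was not tested. Cyp2b13 (-2.06 to -1.13), Cyp2b9 (-2.06 to -0.93), Moxd1 (1.52 to 3.93), Adamts15 (0.90 to 1.52) and Aatk (-1.14 to -0.71) kept their sign under every alternative run. Hao2, Cyp2b10 and F2rl2 were not well above background in HQ, which limits their precision.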
